A study of Mus musculus with 36 samples.

Results

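Brains of HET and WT embryos whose dams ate the excess folic acid (FA) diet, 30 ppm FA, were compared for DNA methylation. The genotype and diet in the labels chose 5 HET and 3 WT libraries, 8 of the 36 in the series, and no measured value entered that choice. Each library came from the brain of 1 embryo at E11.5, and all embryos were of the 129S6.Cg strain, bred from HET dams and sires carrying Tet1tm1Koh, an allele in which a cassette inserted at the start codon removes full-length TET1. HET embryos carried 1 Tet1tm1Koh allele and WT embryos none, the allele is present in every cell, and every dam received the antibiotic succinylsulfathiazole (SST) at 1% of the diet. The control diet of the series held 3 ppm FA and the depleted diet 0.1 ppm, both with the same antibiotic. HET replicates 3 and 4 were scored with a brain malformation (inHB), while the other 3 HET and all 3 WT embryos were scored normal. The 8 embryos came from 4 litters: litter 36 gave HET replicates 1 and 3 and WT replicate 1, litter 41 gave HET replicate 5 and WT replicate 2, litter 38 gave only HET (replicates 2 and 4) and litter 43 only WT (replicate 3).

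TET1 is a dioxygenase that oxidises 5-methylcytosine, the first step in removing methylation from CpGs, and its CXXC domain binds CpG-rich DNA. Folate feeds the one-carbon cycle that supplies S-adenosylmethionine, the methyl donor of the DNA methyltransferases. The comparison asks whether losing 1 copy of Tet1 changed brain methylation when the dam had excess folate. Oxidative bisulfite sequencing of a reduced representation (oxBS-RRBS) was used, in which 5-hydroxymethylcytosine is oxidised before bisulfite treatment, so that the level reported is 5-methylcytosine alone. A methylation level here is the percentage of reads that were methylated, and a difference between levels is given in percentage points.

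Depth ranged from 34 to 61.81 M CpG calls (M for mega) in the HET libraries and from 28.78 to 94.96 M in the WT libraries. Of 3222873 autosomal CpGs listed in any of the 8 libraries, 1181391 were covered at least 5 times in all 8, and these shared CpGs carry every result. The shallowest library, WT replicate 3, had the fewest CpGs at that coverage, 1.335 M over all chromosomes, which bounds their number. The X-linked level and Y-linked reads of all 8 libraries matched the sex in their titles. Intervals on shares of reads are 95% Wilson intervals and cover counting error only.

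The targeted gene was examined first, and at a CpG within it 1 of the 8 libraries went against its label. A single CpG in an intron of Tet1, chr10:62884019 in GRCm38, was chosen from libraries of other diets, as the CpG near Tet1 that was far more methylated in KO on 3 and 0.1 ppm than in WT on 3 ppm (0 to 7.32%). It is shown here with its 10 flanking bases on either side, the CpG in capitals.
Tet1: ttccagctgcCGccggtgctaa
In the HET libraries the level of this CpG was 8.33%, 23.5%, 20%, 25.8% and 28.6% (replicates 1 to 5, 14 to 31 reads). HET replicate 1, with 2 of 24 reads (interval 2.32 to 25.8%), was close to the highest WT library on 3 ppm, at 7.32%. WT replicates 1 and 3 had 0 of 30 reads (upper limit 11.4%) and 0 of 8 reads (upper limit 32.4%). The library labelled WT replicate 2 had 12 of 33 reads methylated (interval 22.2 to 53.4%), a higher share than in any HET library on this diet. Of the WT libraries on 0.1 ppm, which took no part in choosing the CpG, replicate 1 had 6.25% and replicate 2 had 6 of 15 reads methylated (40%, interval 19.8 to 64.3%). Of the 6 libraries labelled KO on this diet, 5 had 77.8 to 100.0%, and KO replicate 1 had 45% (25.8 to 65.8%). On chromosome 10, 20 CpGs were read in most KO libraries of the 3 and 0.1 ppm diets and in none of the WT libraries on 3 ppm. They lay outside Tet1, at 45.16 Mb and from 68 to 69.38 Mb, many close together, so they are not 20 separate checks of the allele. Here the library labelled WT replicate 2 had reads at 20 of these 20, WT replicate 3 at 5, WT replicate 1 at 0, and the HET libraries at 7 to 19. WT replicate 3 was thus near HET replicate 5, at 7. The upper limit of its 8 reads at the Tet1 CpG is above every HET level, so these values do not settle its label. The library labelled WT replicate 2 on 0.1 ppm had reads at 11, so it also went against its label. No level below is taken from it, but the deposited lists of the 0.1 ppm diet used below were made from embryos of that diet. All libraries keep their labels below, and means, region sets, counts of calls and gene-list medians are also given without the library labelled WT replicate 2. Leaving it out leaves 2 WT embryos.

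Mean methylation over the shared CpGs did not separate the genotypes. The 5 HET embryos had means of 35.12%, 35.5%, 35.12%, 35.24% and 35.88% (replicates 1 to 5) and the WT embryos 34.45%, 35.8% and 34.93%. HET embryos averaged 35.37% ± 0.324 (SD, n = 5) and WT embryos 35.06% ± 0.685 (SD, n = 3). The difference of 0.309 points was within the spread between embryos (p = 0.411 by a two-sided exact permutation test, in which 0.0179 is the smallest p that 5 against 3 embryos can give). Without the library labelled WT replicate 2, each HET embryo lay above both remaining WT embryos, and the difference was 0.68 points (exact permutation p = 0.0952, smallest possible 0.0476). The 2 HET embryos with a brain malformation, at 35.12% and 35.24%, lay within the range of the 3 normal ones, 35.12 to 35.88%. Within litter 36 the HET embryos were above their WT sibling, 35.12% against 34.45%, and within litter 41 the levels were 35.88% and 35.8%.

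The shared CpGs were then divided by gene feature, by the level in WT embryos on 3 ppm and by the number of CpGs in the surrounding 1 kb. CpGs that were partly methylated in WT on 3 ppm, at 20 to 80%, had the largest difference among these 10 classes. Over 127409 such CpGs the HET embryos had 62.8%, 64.3%, 62.4%, 63.4% and 65.9%, and the WT embryos 59.3%, 65.2% and 61.0%. All 5 HET embryos were above WT replicates 1 and 3, while the library labelled WT replicate 2 was above 4 of them. The difference was 1.94 points (exact permutation p = 0.25, Benjamini-Hochberg adjusted p = 0.714 over the 10 classes) and 3.63 points without that library (p = 0.0476, adjusted p = 0.119). CpGs under 20% in WT on 3 ppm were at 1.41% in HET and 1.45% in WT, a difference of -0.0422 points that turned to 0.0917 without that library. CpGs over 80% were at 91.1% and 90.7%, a difference of 0.361 points, or 0.669 without it.

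Promoter CpGs, within 1 kb of the start of any annotated transcript, were at 9.59% in HET and 9.52% in WT, 0.0732 points apart (p = 0.571 by exact permutation). Further differences were 0.699 points in exons (p = 0.214), 0.682 in introns (p = 0.375) and 0.486 between genes (p = 0.482), by the same exact permutation test, with an adjusted p of 0.714 for each of the 4 features. With the library labelled WT replicate 2 left out they grew to 0.232 points in promoters and 1.35 in exons (exact permutation p = 0.0476 and adjusted p = 0.119 for both), 1.38 in introns (p = 0.0952) and 1.07 between genes (p = 0.238). In CpG-dense kilobases (30 or more CpGs) the difference was 0.0467 points, and 0.196 without that library, and in kilobases with 10 to 29 CpGs it was 0.706 and 1.42 points. Around the start sites of protein-coding genes the level fell from 54.5% in HET and 53.8% in WT at 4750 bp upstream to 1.99% and 2.04% at 250 bp downstream. The 2 genotypes followed the same course there, and no bin of 500 bp within 5 kb of a start site differed by more than 0.674 points, or 1.24 points without the library labelled WT replicate 2.

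Regions that responded to Tet1 dose in other embryos were examined next, since none of the 30 ppm embryos had been used to choose them. At 543 tiles of 1 kb that were higher in HET than in WT on 3 ppm, the HET embryos on 30 ppm had 49.55%, 50.57%, 50.07%, 49.16% and 51.29%. The WT embryos had 41.69%, 52.39% and 41.83%. WT replicates 1 and 3 were thus below every HET embryo, and the library labelled WT replicate 2 was above all 5. The difference of the means was 4.83 points with all 3 WT embryos (exact permutation p = 0.125, adjusted p = 0.387 over the 8 region sets) and 8.37 points without that library (p = 0.0476, adjusted p = 0.0635). The first p misses the threshold, and the second is the smallest that 5 against 2 embryos can give.

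At 10243 tiles higher in KO than in WT on 3 ppm the HET embryos spanned 41.7 to 43.9%. WT replicates 1 and 3 were at 37.71% and 38.57%, and the library labelled WT replicate 2 at 45.02%. The difference was 2.05 points (exact permutation p = 0.25), and 4.34 points without that library (p = 0.0476). Deposited lists of differentially methylated regions (DMRs) were read in the same embryos. At the HET against WT hypermethylated DMRs of 3 ppm the HET embryos had 53.6 to 55.7% and the 3 WT embryos 49.2%, 56.3% and 49.9%, a difference of 2.54 points with all libraries and 4.8 without the one labelled WT replicate 2. At the KO against WT hypermethylated DMRs of 3 ppm the HET mean was 41.01% against 37.05%, 43.21% and 37.95% in WT, and at those of 0.1 ppm it was 33.3% against 29.1%, 36.15% and 29.96%. These differences were 1.61 and 1.6 points, and 3.51 and 3.81 without that library. DMRs that were lower in WT on 0.1 than on 3 ppm had a HET mean of 46.4% and WT levels of 42.85%, 48.19% and 42.48%, which gave 1.89 points, and 3.73 without it. In these 4 sets p was 0.0476 (adjusted p = 0.0635) by exact permutation once it was left out, and 0.179 to 0.339 before. DMRs that were lower in HET than in WT on 3 ppm did not run the opposite way, with 58.9% in HET and 58.0% in WT (0.867 points, and 1.38 without that library). Among DMRs that were higher in WT on 0.1 than on 3 ppm the values were 72.4% and 71.8% (0.598 and 1.49 points). For the last 2 sets WT replicate 3 lay within the HET range, at 58.41% and 72.5%, and WT replicate 1 below it, at 56.57% and 69.2%.

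**Figure D1:**
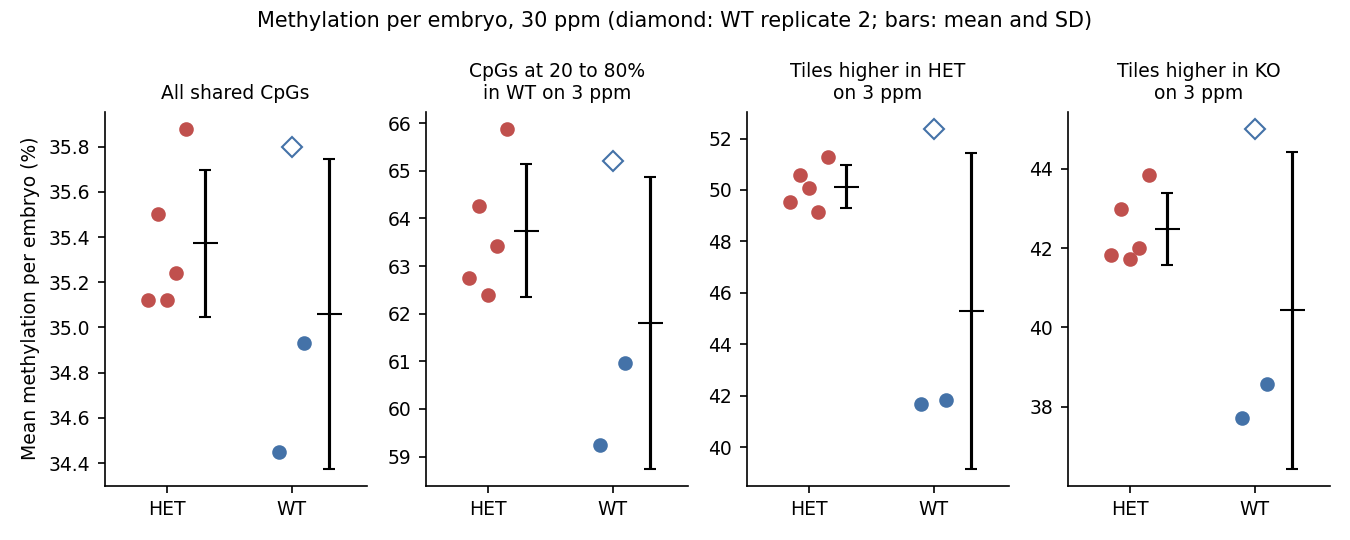
Mean methylation in percent on the y axis for each embryo on 30 ppm, HET (red) and WT (blue), in 4 sets of CpGs, with the mean and SD of each group beside the points. In the tiles higher in HET on 3 ppm, WT replicates 1 and 3 sit at 41.69% and 41.83%, below HET embryos at 49.2 to 51.3%, and the open diamond, the library labelled WT replicate 2, sits at 52.4%.

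Tiles of 1 kb were tested one by one with a quasi-binomial logistic model, and a tile was called where the Benjamini-Hochberg adjusted p was under 0.05 and the group means differed by at least 10 points. Of 64629 tiles tested, 0 were called (0%), in either direction. The lowest adjusted p was 0.0551. At an unadjusted p under 0.05 and 10 points, 546 tiles were higher in HET (0.845%) and 92 were lower (0.142%). All 5 HET embryos were above all 3 WT embryos in 1529 tiles (2.37%) and below them in 533 (0.825%). The median difference over all tested tiles was 0.696 points, and 58.7% of tiles were higher in HET. Limma on the tile levels also called 0. On simulated tiles raised by 10 points the quasi-binomial test called 0 or 21 of 100, depending on the spread simulated. A count of 0 therefore does not show that no tile differed. With litter as a block, which compares HET and WT embryos of the same dam, 20 tiles were called, 19 higher and 1 lower. Only litters 36 and 41 held both genotypes, so that this contrast rested on HET replicates 1 and 3 against WT replicate 1 and on HET replicate 5 against the library labelled WT replicate 2.

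Without the library labelled WT replicate 2 the count was 605 of 64153 tiles (0.943%), 597 higher in HET (0.931%) and 8 lower (0.0125%). Leaving out any other library gave 0 to 21 calls: 21 without WT replicate 1, 12 without WT replicate 3, 8 without HET replicate 1, 7 without HET replicate 5, 4 without HET replicate 3, 1 without HET replicate 4 and 0 without HET replicate 2. HET embryos were above both WT embryos in 6697 tiles (10.4%) and below in 1159 (1.81%). Groups of 5 and 2 embryos fall apart in a given direction in 1 of 21 splits (0.0476), and groups of 5 and 3 in 1 of 56 (0.0179). Shares of separated tiles with and without that library are therefore not directly comparable. At an unadjusted p under 0.05 and 10 points, 1953 tiles were higher (3.04%) and 87 lower (0.136%). Tiles higher in HET were present on 19 of 19 autosomes. They made up 1.45% of tested tiles in promoters (146 tiles), 1.52% in exons (130), 0.839% in introns (201) and 0.557% between genes (120). Between 60 and 72 Mb of chromosome 10, the interval that holds Tet1, 10 of 580 tiles were higher. The genotypes were apart in 9.83% of the tiles there, beside 12.2% over all tiles. With all 8 libraries 0 of 584 tiles in that interval were called.

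**Figure D2:**
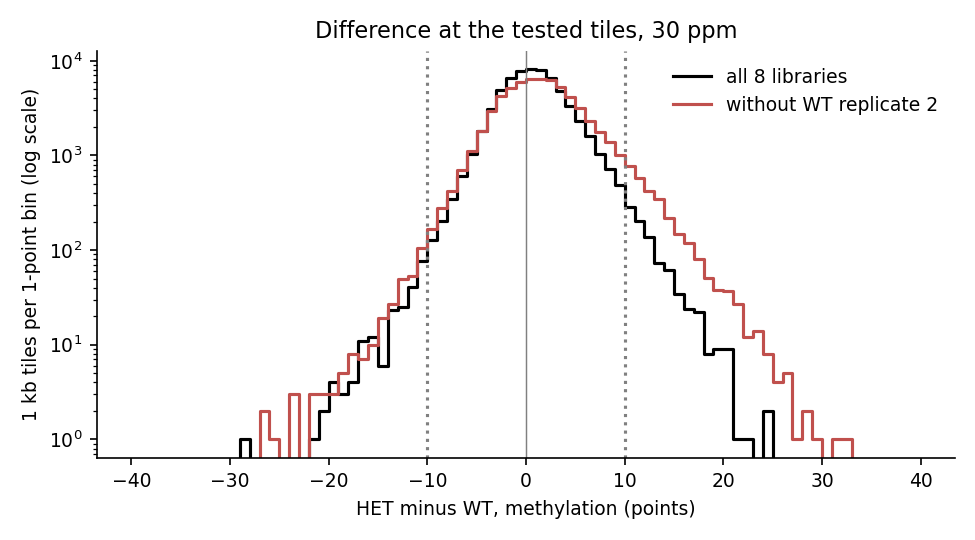
Number of tested 1 kb tiles (y axis, log scale) by the difference HET minus WT in percentage points (x axis, bins of 1 point), with all 8 libraries in black and without the library labelled WT replicate 2 in red; dotted lines mark 10 points either way. The red curve extends further on the side of higher methylation in HET, where 597 tiles were called, than on the other, where 8 were.

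The 597 tiles were examined in embryos that had no part in choosing them. On 3 ppm, 584 of them were measured, and the HET embryos had means of 54.6%, 56.4% and 55.1% against 46.7%, 45.5%, 46.3% and 44.6% in WT. Every HET embryo on 3 ppm, the library that did not match its labelled sex (replicate 1, 54.6%) included, was above every WT embryo, by a mean of 9.6 points, where the median difference over all 69097 tiles tested on that diet was 2.15 points. Of the 568 tiles that were also tested on 3 ppm, 145 (25.5%) were called higher in HET there, against 0.805% of all tiles, and these were 26.1% of the 556 tiles called on 3 ppm. Of 547 tested for KO on 3 ppm, 477 (87.2%) were called higher in KO, against 16.3% of all tiles. The values over all tiles are not a matched background. All tiles tested for HET on 3 ppm had a median WT level of 85.1%, with little room to gain 10 points. The 9.6 points are a mean over CpGs, and the 2.15 points a median over tiles. On 30 ppm itself the library labelled WT replicate 2, which had not been used, stood at 54.65% over these tiles, next to HET embryos at 53.2 to 56.4% and WT replicates 1 and 3 at 41.18% each. In 432 of 596 tiles its level was within the range of the 5 HET embryos, in 78 above it and in 86 below it.

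**Figure D3:**
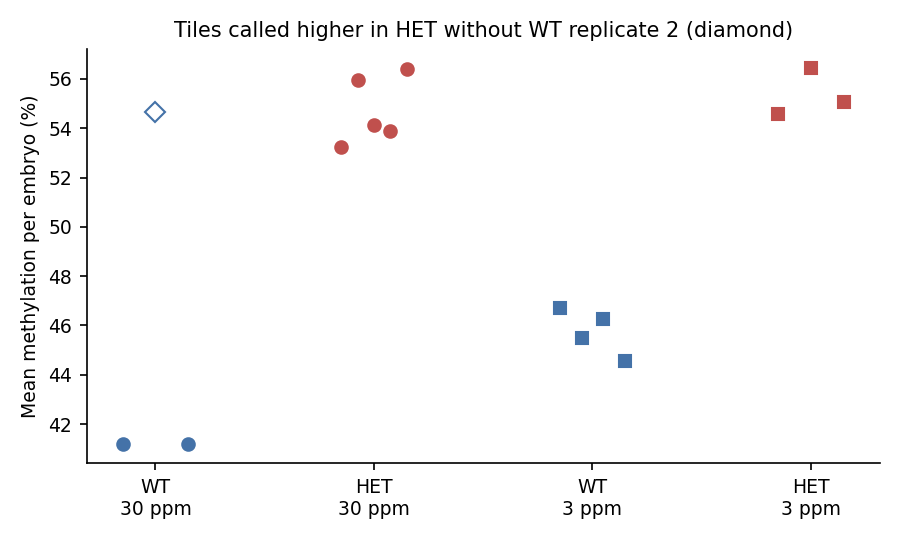
Mean methylation in percent (y axis) of each embryo over the 597 tiles called higher in HET on 30 ppm once the library labelled WT replicate 2 was set aside, by genotype and diet; the open diamond is that library. WT embryos on 3 ppm lie at 44.6 to 46.7% and HET embryos on 3 ppm at 54.6 to 56.4%, and neither group was used to choose the tiles.

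Stretches of the tiles and promoters that carry these differences are printed here from the reference genome (GRCm38.p6, forward strand), so that the CpG context of the changes can be seen. Capitals mark the CpGs that were covered at least 5 times in all 8 libraries, and bases annotated as an untranslated region (UTR) of a transcript are not shown. The stretches lie at chr11:88348816-88348978 (an exon of Msi2), chr2:168661910-168661979 (an exon of Atp9a), chr15:87963461-87963520 (intergenic, Fam19a5 the nearest gene), chr13:58668818-58668894 (outside protein-coding genes, Slc28a3 the nearest, but within 1 kb of an annotated transcript start), chr13:41114192-41114240 (before the start of Sycp2l) and chr8:71701500-71701693 (just after the start of B3gnt3, which lies on the reverse strand).
Msi2: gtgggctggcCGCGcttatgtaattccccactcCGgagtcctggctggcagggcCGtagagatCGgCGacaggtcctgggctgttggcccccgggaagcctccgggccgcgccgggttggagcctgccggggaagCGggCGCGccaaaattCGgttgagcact
Atp9a: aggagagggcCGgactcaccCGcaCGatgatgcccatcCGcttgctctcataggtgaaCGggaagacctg
Fam19a5: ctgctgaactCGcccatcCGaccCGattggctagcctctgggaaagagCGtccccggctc
Slc28a3: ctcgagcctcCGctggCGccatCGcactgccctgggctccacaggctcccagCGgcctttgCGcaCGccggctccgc
Sycp2l: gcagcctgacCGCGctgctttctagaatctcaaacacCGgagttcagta
B3gnt3: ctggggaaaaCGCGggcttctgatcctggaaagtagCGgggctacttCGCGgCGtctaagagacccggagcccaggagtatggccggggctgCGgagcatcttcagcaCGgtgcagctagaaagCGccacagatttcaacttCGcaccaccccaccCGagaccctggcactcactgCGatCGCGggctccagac

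The stretches shown were picked from those read, without a rule set beforehand. Each tile or promoter shown here had been taken for HET levels above those of WT embryos. The direction at its CpGs therefore follows largely from that choice. In most of those shown the difference was spread over neighbouring CpGs, which lie close together and are not separate checks. Among stretches not shown, Ube2u and Spata18 had HET means above WT replicates 1 and 3 at each CpG. Hopx and Serhl were uneven. The first Hopx CpG was at 87.2% in HET and 84.8%, 92.9% and 100% in WT. The third Serhl CpG was at 8.17% in HET and 10.6%, 25% and 13.3% in WT. At each of the 10 CpGs of the Msi2 stretch the HET mean, 45.9 to 82.6%, was above both WT replicate 1 (34.8 to 63.2%) and WT replicate 3 (0 to 54.2%). The library labelled WT replicate 2 was above the HET mean at the fifth, the sixth, the eighth and the ninth of them. All 5 CpGs shown for Atp9a had a HET mean above all 3 WT embryos, the last of them at 59.4% against 18.2%, 47.1% and 47.4%. The same held for the 4 intergenic CpGs named by Fam19a5, the nearest gene, whose start is 419191 bp away. The first of them was at 80.1% in HET and at 34%, 53.6% and 54.5% in WT. In the 3 CpGs before Sycp2l the HET means were 33.0%, 29.6% and 47.9%, above WT replicate 1 (19%, 8.62% and 25.4%) and WT replicate 3 (19.4%, 19.4% and 31.2%). The library labelled WT replicate 2 was above the HET mean at each of them. The B3gnt3 stretch was less even: the HET mean was above WT replicate 1 at each of its 14 CpGs, but not above WT replicate 3 at the second (22.1% and 22.2%) and the third (32.9% and 36.1%). The library labelled WT replicate 2 was above the HET mean at the first, the second, the third, the sixth (45.7% and 31.6%), the ninth, the tenth and the eleventh.

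No tile passed the test with all 8 libraries, so the tiles named next were taken by size. They came from tiles with an unadjusted p under 0.05 in which the genotypes did not overlap, at most 1 per gene and none on chromosome 18. They are values and not calls. Among the 12 with the largest positive difference, 7 lay in the exons or introns of a protein-coding gene. An intron tile of Prkcz, which encodes the atypical protein kinase C zeta of the cell polarity complex, had 73.3%, 57.1%, 50%, 69.0% and 60.9% in HET and 33.3%, 46.8% and 33.3% in WT, a difference of 24.3 points (adjusted p = 0.502). The exon tile of Atp9a, a phospholipid flippase gene, had 67.2 to 73.9% in HET and 40.7%, 62.4% and 47.7% in WT (adjusted p = 0.2). In both tiles the library labelled WT replicate 2 was the highest of the WT embryos, and the nearest to HET. An intron tile of Hs2st1, a heparan sulfate sulfotransferase gene, spanned 61.5 to 78.8% in HET and 36.9 to 60.0% in WT. A tile at -57978 bp from the start of Slc28a3, a nucleoside transporter gene and the nearest protein-coding one, had 65.8 to 80.4% in HET. The WT embryos had 37.2%, 57.6% and 57.7% there (adjusted p = 0.176). Rgs17, which encodes a regulator of G protein signalling, held an intron tile at 81.8 to 96.9% in HET and 55.0 to 75% in WT. Flt3, a haematopoietic receptor tyrosine kinase, held an exon tile at 52.9 to 70.6% and 33.3 to 49.4%. Without the library labelled WT replicate 2 the differences at these 12 tiles were 20.9 to 28.7 points, and the adjusted p was under 0.05 except at Rgs17 (0.0507) and at a tile within Wdr66 (0.211). The KO embryos on 30 ppm averaged 51.0 to 91.7% at the 12 tiles. KO means on 30 ppm, here and below, include the library labelled KO replicate 1 where it was covered, which the study's sample list gives as HET. They were below the HET mean at Prkcz (55.6% and 62.1%), Rgs17 (84.1% and 87.3%), the tile within Wdr66 (60.6% and 68.9%) and Arl15 (61.4% and 67.7%). The same held at -34542 bp from the start of Trim2 (51.0% and 62.0%), and the KO mean was above the HET mean at the others. On 3 ppm the HET mean was above the WT mean in 10 of the 12, with Rgs17 (77.3% and 79.2%) and Flt3 (50.6% and 52.7%) as the exceptions.

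**Figure D4:**
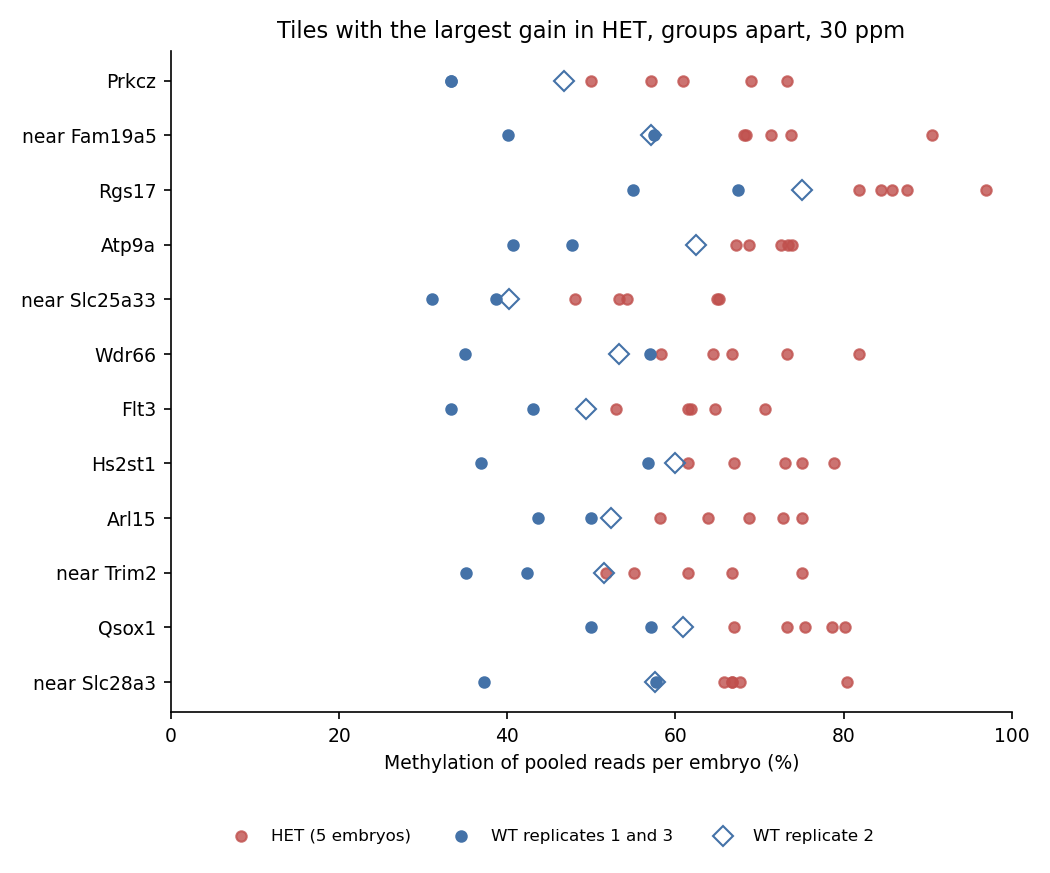
Methylation in percent (x axis) of each embryo on 30 ppm at the 12 tiles with the largest positive difference among those in which HET (red) and WT (blue) did not overlap. At most 1 tile per gene and none on chromosome 18 was taken, at an unadjusted p under 0.05. Tiles outside protein-coding genes are named by the nearest gene, whose start can be as far as 419191 bp away (Fam19a5). Points of the 2 genotypes do not overlap by the choice of tiles, and the open diamond, the library labelled WT replicate 2, is the highest WT embryo in 9 of the 12 rows.

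The 8 tiles with the largest negative difference ran from -20.5 to -16.4 points and carried adjusted p values of 0.41 to 0.874. A tile upstream of Plekhf1 had 52.4 to 62.5% in HET and 72.5 to 87.5% in WT, and its shallowest library had 18 reads. An intron tile of Csrp1, a LIM domain protein gene, had 20 to 43.5% in HET and 44.9 to 58.3% in WT. At these 8 tiles the difference did not run one way on 3 ppm, where the HET mean was above the WT mean in 6. In 249 tiles every HET embryo was below every WT embryo on 30 ppm with an unadjusted p under 0.05. Over them the embryos on 3 ppm averaged 71.1% in HET and 69.4% in WT. The 886 tiles with every HET embryo above every WT embryo on 30 ppm, at the same unadjusted p, averaged 74.7% and 70.5% on 3 ppm. On 3 ppm every HET embryo was above every WT embryo over both lists.

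With litter as a block, most of the 20 called tiles held many CpGs, and the following were chosen after their values were seen. All 8 values are described, although HET replicates 2 and 4 and WT replicate 3, from litters of 1 genotype, gave the blocked contrast no information. Gja4, which encodes the gap junction protein connexin 37 of the vascular endothelium, had 54.1%, 56.3%, 56%, 55.3% and 58.3% in HET and 36 to 49.6% in WT, the library labelled WT replicate 2 being the highest, over 29 CpGs (adjusted p = 0.000449 with litter as a block, 0.0551 without it). A tile of 48 CpGs shared by Cbx6, a Polycomb subunit gene, and Npcd had 63.2 to 78.6% in HET and 51.8%, 69.5% and 60.3% in WT, where HET replicate 3, at 63.2%, lay below the library labelled WT replicate 2 (adjusted p = 8.71e-06). In an exon of Magi1, which encodes a scaffold protein of cell junctions, the values were 64.5 to 75% and 54 to 62.7% over 20 CpGs (adjusted p = 0.00137). Bsn, the gene of the presynaptic scaffold bassoon, held an exon tile at 75.7 to 81.3% in HET and 61.5 to 70.7% in WT (adjusted p = 0.0242). The 1 tile lower in HET lay in an intron on chromosome 12, with Gm21863 as the nearest protein-coding gene (278381 bp from its start). It had 28.4%, 22.4%, 31.4% and 42.3% in HET replicates 2 to 5, but 71.4% in HET replicate 1, against 60.4 to 73.8% in WT. The HET embryos at this tile thus fell on both sides, and 1 of 5 overlapped the WT embryos.

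Tiles chosen on the 3 ppm embryos, or named for the whole series, were not called with all 8 libraries. The lowest adjusted p among them was at a tile shared by Gnaz, which encodes a G protein alpha subunit of neurons, and Rsph14. This tile had 75.6%, 75.7%, 66.9%, 71.8% and 72.8% in HET and 48.5%, 67.4% and 50.8% in WT (adjusted p = 0.176). HET replicate 3 was below the library labelled WT replicate 2 there. Without that library 3 of these tiles passed, Gnaz with 22.9 points (adjusted p = 3.67e-07), Spata18 with 32.2 points (adjusted p = 0.000593) and Zfp467 with 11.6 points (adjusted p = 0.000636). A tile outside protein-coding genes had Gata5 as the nearest, at -54526 bp from its start. This tile had 56 to 78.6% in HET and at most 53.4% in WT, without overlap (adjusted p = 0.819, and 0.303 without the library labelled WT replicate 2). Spata18, a mitochondrial quality control gene, was the most variable, with 26.3%, 67.9%, 50.8%, 60.1% and 49.2% in HET and 35.3%, 54.6% and 2.02% in WT. An exon tile of Zfp467, a zinc finger gene, had 16.2 to 30.7% in HET and 13.4%, 21.9% and 7.19% in WT, beside 65.0% in KO on 30 ppm. Spaca1, a gene of the sperm acrosome, had 8.0 to 29.8% in HET, 10.9%, 26.8% and 8.82% in WT and 59.1% in KO at its start, and its difference of 2.49 points became 8.12 points without the library labelled WT replicate 2 (adjusted p = 0.0114, under the 10 points a call needed). The exon tile of Arhgap23, which encodes a GTPase-activating protein, had 28.6 to 36.1% in HET and 22.4%, 33.2% and 33.2% in WT. At Igfbp5, which encodes a binding protein of insulin-like growth factors, the HET mean was below the WT mean, with a tile upstream of the gene at 40.0 to 74.5% in HET and 42.3%, 69.1% and 75% in WT, although its HET mean was above its WT mean on 3 ppm (70.2% and 39.6%).

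Promoters were tested over 1 kb to either side of the start of protein-coding genes. Of 20780 such genes, 13290 had at least 3 shared CpGs, and 11715 of these had a WT level under 10%. A standard deviation of at least 2 points over embryos was required for the test, which left 1774 promoters. None was called (0%) by the quasi-binomial test, with a lowest adjusted p of 0.982, and limma called 0, while 71 had an unadjusted p under 0.05, of which 10 were at least 10 points higher (0.564%). HET was above every WT embryo in 25 promoters (1.41%) and below in 8 (0.451%). Crygc, a lens crystallin gene, had the largest difference among promoters in which the groups were apart at an unadjusted p under 0.05, with 48.6%, 64.0%, 60.9%, 57.9% and 46.0% in HET and 31.4%, 42.4% and 40.0% in WT. Avp, the vasopressin gene, had 78.9 to 94.1% in HET and 60.9 to 73.4% in WT over 3 CpGs. At Lcat, which encodes a cholesterol-esterifying enzyme of plasma, the 3 WT embryos were close together, 66.9 to 68.4%, below HET at 73.8 to 81.4%. Ldhd, the D-lactate dehydrogenase gene, was at 58.8 to 64.9% in HET and 53.7 to 55.0% in WT. In Lcat and Ldhd the library labelled WT replicate 2 stood with the other WT embryos. Nedd8 and Gmpr2, whose promoter windows on chromosome 14 overlap and share CpGs, had HET minus WT differences of -8.31 and -7.77 points, with no overlap of the embryos.

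Without the library labelled WT replicate 2, 12 of 1661 promoters were called, all higher in HET (0.722%), and 0 lower. Both WT embryos were exceeded in 235 promoters (14.1%) and undercut in 22 (1.32%), and 49 were higher at an unadjusted p under 0.05 and 10 points (2.95%). As for the tiles, groups separate more readily when fewer WT embryos are left. Sycp2l, a synaptonemal complex gene of the oocyte that starts at position 41114307 of chromosome 13, had 48.9%, 53.0%, 52.7%, 43.6% and 46.4% in HET and 27.2% and 25.7% in WT replicates 1 and 3 (adjusted p = 0.00133). The library labelled WT replicate 2 had 59.5% there, above all HET embryos. On 3 ppm the same CpGs averaged 34.6% in WT, 52.4% in HET and 88.3% in KO. Hopx, a homeodomain-only protein gene, had 60.6 to 71% in HET and 47.8% and 51.2% in these WT embryos (adjusted p = 0.0131), with 66.3% in the library left out. Mavs, the mitochondrial adaptor of antiviral signalling, had 24.1 to 29.3% against 18.9% and 12.5%. B3gnt3, a glycosyltransferase gene, had 34.4 to 40.7% against 27.3% and 26.7%. Cnmd, which encodes the cartilage protein chondromodulin, had 22.8 to 27.5% against 15.2% and 15.6%. Krt27, a hair keratin gene, had 80.6 to 89.9% against 74.3% and 77.1%. Resp18, a neuroendocrine secretory protein gene, had the lowest levels, 12.2 to 19.2% against 3.18% and 2.99%. The other members were Ube2u, Serhl, Chp2, Trim10 and 4931440F15Rik, with differences of 11.1 to 14.5 points. In each of the 12 promoters the mean in HET on 3 ppm, which was not used in the choice, was above that in WT, and KO on 30 ppm averaged above HET on 30 ppm.

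**Figure D5:**
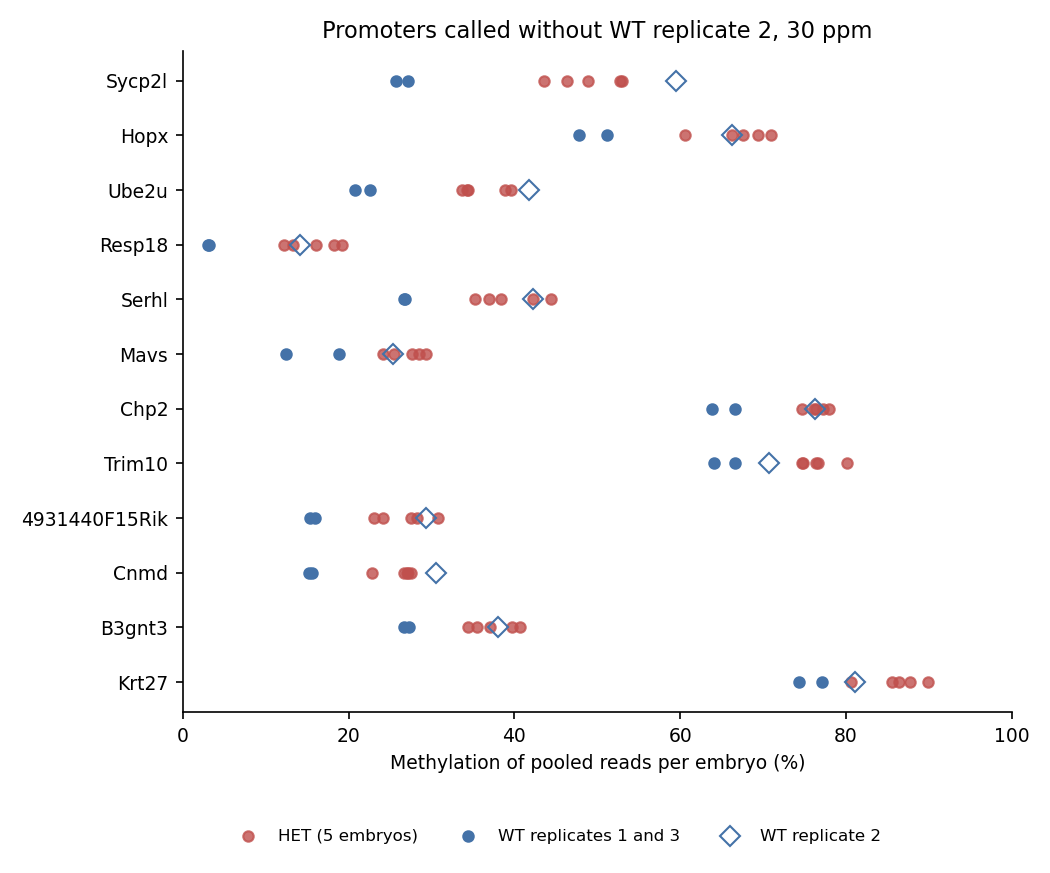
Methylation in percent (x axis) of each embryo on 30 ppm at the 12 promoters called higher in HET without the library labelled WT replicate 2, HET in red, WT replicates 1 and 3 in blue and the library left out as an open diamond. Sycp2l shows WT replicates 1 and 3 at 27.2% and 25.7%, HET at 43.6 to 53.0% and the diamond at 59.5%.

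Gene lists of folate metabolism, neural tube closure and brain development held few promoters that could be tested, because their promoters were nearly unmethylated in both genotypes. Of 48 measured promoters of cranial neural tube closure genes, 48 had a WT level under 10%, the median was 0.65% in HET and 0.787% in WT, and none of them differed by more than 1.61 points. The hedgehog pathway (23 of 23 under 10%), Notch and bHLH genes (33 of 33), brain patterning homeobox and PAX genes (52 of 52) and Hox clusters (35 of 35) were alike, and of these 4 lists only Pax8 and Hoxb8 were variable enough for a test. For WNT ligands, receptors and inhibitors 52 of 54 were under 10%, and for axon guidance 60 of 63. Median differences over these 7 lists lay between -0.19 and -0.008 points, beside -0.061 over all 13290 measured promoters. Without the library labelled WT replicate 2 they lay between -0.26 for the hedgehog pathway and 0.064 for the Hox clusters, beside -0.013 over all promoters, so that the direction for Hox clusters turned. Marker promoters of neural progenitors were all under 10% in WT (9 of 9), which is usual for CpG-dense promoters and does not check the tissue.

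Genes of one-carbon metabolism and folate transport did not pass in either direction. In one-carbon and folate metabolism 38 promoters were measured and 8 tested, of which 0 were called with or without the library labelled WT replicate 2. Over all promoters 0 of 1774 were called with it and 12 of 1661 (0.722%) without it. The Mtr and Mthfd1 promoters had WT levels of 0.693% and 2.79% and differences of -0.313 and -0.24 points, which became -0.457 and 0.00471 without the library labelled WT replicate 2. Psat1, of serine synthesis, had the largest positive difference, 5.72 points (adjusted p = 0.982), or 9.6 points without that library (adjusted p = 0.557), and Mat1a, a methionine adenosyltransferase gene, the largest negative, -1.73 points. In folate transport 9 were measured and 2 tested. The reduced folate carrier gene Slc19a1 was at 0 to 1.61% in all embryos, and Slc46a1, the proton-coupled folate transporter gene, at 2.03 to 5.91%. All measured Slc46a1 CpGs lay to the same side of its start. The paper reports that RRBS missed the CpG island shore of Slc46a1, where its targeted sequencing found higher methylation in KO on excess FA. That sequencing used whole embryos, 2 per genotype and diet, and not dissected brain. These levels do not cover that shore. Abcc3, an efflux pump gene, had 22.7%, 30.6%, 23.9%, 22.1% and 29.2% in HET and 13.9%, 27.1% and 19% in WT, a difference of 5.68 points (adjusted p = 0.982). Cubn, which encodes the receptor cubilin, had 20.3 to 28.3% in HET and 15.2 to 27.7% in WT, a difference of 3.58 points, or 6.82 without the library labelled WT replicate 2. Without the same library the Abcc3 difference was 9.24 points with an adjusted p of 0.0455, below the 10 points a call needed.

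Promoters of genes that write, read or erase DNA methylation were not called, and neither was any other promoter with all 8 libraries. Of 17 measured, 14 were under 10% in WT, including Dnmt3a, Dnmt3b, Uhrf1, Tet2 and Tdg, whose differences were -0.35, 0.0222, 0.0179, -0.301 and -0.176 points. Dnmt1 was methylated at 83.3 to 88.8% in HET and 85.6 to 86.8% in WT over 5 CpGs of this window. They lay together at 20958895 to 20958938 of chromosome 9, at the edge of the window around the annotated start used (20959888). These levels do not cover the rest of that window or any other start of the gene. Dppa3, a germline and oocyte factor, had 62.0 to 83.7% in HET and 53.3 to 81.0% in WT, and Dnmt3l, the cofactor of de novo methylation, 63.0 to 77.8% and 59.5 to 74.3% (adjusted p = 0.982 for each).

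Lists with methylated promoters had more members in the test. None of these was called, as none of all 1774 promoters tested was. Without the library labelled WT replicate 2 the share called over all promoters was 0.722%. Of 30 measured germline genes silenced by methylation, 24 had a WT level over 50%, 22 were tested, and the median difference was 0.58 points (0.61 without the library labelled WT replicate 2). Hormad2, a gene of meiotic chromosome axes, had the largest difference among them, with 48.4%, 48.5%, 51.4%, 49.4% and 62.0% in HET and 42%, 52.3% and 29.4% in WT (10.7 points, adjusted p = 0.982). Without the library labelled WT replicate 2 its difference was 16.2 points (adjusted p = 0.0591). Of 33 imprinted genes measured, 16 were tested. Peg10, which is expressed from the paternal allele, had 47.6 to 68.4% in HET and 35.5% and 41.9% in WT replicates 1 and 2, while WT replicate 3 lay within the HET range, above HET replicate 4 (12.3 points, adjusted p = 0.982). The promoter of Sgce was measured at the same 11 CpGs as that of Peg10 and adds no second value, and Mcts2 had the largest negative difference, -4.75 points. Protocadherin cluster promoters, at a median of 27.6% in HET and 29% in WT, had 24 of 29 tested and a median difference of -0.22 points, which turned to 0.24 once the library labelled WT replicate 2 was left out. Among the tested ones Pcdha9 was apart below WT, at 35.1 to 48.0% against 50.7 to 52.0%, with the library labelled WT replicate 2 among the WT embryos. For 234 solute carrier and 74 potassium channel promoters, the medians were -0.069 and -0.056 points, and these turned to 0.018 and 0.2 without that library. Kcnip1, a potassium channel interacting protein gene, was apart above WT, at 77.3 to 82.7% against 63.4%, 74.6% and 69.8%. Pluripotency genes (20 measured, 7 tested) had a median difference of -0.08 points (-0.062 without that library).

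Markers of other cell types that a brain dissection could hold were also read. Blood markers had 4 measured promoters with 1 tested, endothelial markers 8 with 2, and mesenchyme markers 11 with 1, and 0 were called. Tie1, an endothelial receptor gene, had 67.7%, 72.2%, 69.4%, 73.5% and 82.7% in HET and 82.3%, 89.1% and 82.4% in WT, the largest negative difference in any list at -11.5 points (adjusted p = 0.982). HET replicate 5 overlapped WT there. The Tie1 value rested on 3 CpGs, with 17 reads in the shallowest library. Emcn, the other endothelial promoter tested, was at 92.6% in HET and 92.8% in WT, a difference of -0.193 points. Whether the share of endothelial cells differed between the embryos was not tested.

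Whether the HET difference depended on diet was tested against 3 HET and 4 WT embryos of the 3 ppm diet. Over CpGs shared by the 15 libraries the HET embryos averaged 33.86% and the WT embryos 33.56% on 30 ppm, and 34.27% and 33.28% on 3 ppm. The effect was 0.295 points on 30 ppm and 0.99 points on 3 ppm, so that it was 0.695 points smaller on 30 ppm (exact permutation of diet within genotype, p = 0.105). Of 58315 tiles 0 were called for the interaction of genotype and diet (0%), and 1262 had an unadjusted p under 0.05 with 10 points, 1044 of them with a lower HET minus WT difference on 30 ppm. When the library labelled WT replicate 2 was omitted, the effects were 0.653 and 0.99 points (exact permutation p = 0.333), and 1 of 58146 tiles was called (0.00172%). Of the 1089 tiles with an unadjusted p under 0.05 and 10 points, 628 then had the lower difference on 30 ppm, a smaller share than with all libraries. Without WT replicate 1 of 30 ppm the effect was 0.99 points smaller on 30 ppm (exact permutation p = 0.0214) and 17 tiles were called, and leaving out any other single library gave 0 to 2. HET replicate 1 of 3 ppm did not match the sex in its title, and it had reads at 0 of the 20 chromosome 10 CpGs, although 4 of its 12 reads at the Tet1 CpG were methylated. Which embryo it came from was not tested. Its autosomal values enter the 3 ppm means and tiles, and without it the effect was 0.775 points smaller on 30 ppm (exact permutation p = 0.103), with 0 tiles called.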

How the data were processed

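The authors sequenced oxBS-RRBS libraries, trimmed them with Trim Galore 0.6.10, aligned them to mm10 with Bismark 0.24.1 and removed duplicates by molecular identifiers with UMI-tools. Deposited per-library files give the methylated fraction and the coverage of each CpG. Fraction times coverage gave whole methylated read counts, so the deposited values were used as counts. Deposited BED files hold only DMR positions, made by the authors with methylKit 1.26.0.

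CpGs on autosomes were used where each of the 8 libraries covered them 5 times or more. Tiles of 1 kb and promoters (1 kb to either side of the start of a protein-coding gene, GENCODE annotation of mm10) needed 3 such CpGs and an SD of at least 2 points. Methylated and unmethylated counts were tested with a quasi-binomial logistic model whose dispersion was moderated across features and held at 1 or above, by a two-sided F test with Benjamini-Hochberg adjustment (Python 3.11.15, scipy 1.17.1). Limma 3.58.1 on levels was an alternative. The scripts were tested on simulated tiles, first with 5 HET against 3 WT. With a spread in proportion to reads, 21 of 100 tiles raised by 10 points and 79 of 100 raised by 20 points were called. With a spread that did not fall with depth, 0 and 12 of 100 were called. Unchanged tiles then had an unadjusted p under 0.05 in 7.34%, and in 4.99% with the first spread. With 5 HET against 2 WT, 8 and 75 of 100 were called under the first spread, and 1 and 9 under the second. Of 64429 unchanged tiles 4 and 9 were then called, and 5.05% and 8.78% had an unadjusted p under 0.05. The prior degrees of freedom, which weigh the dispersion shared across tiles, were 17.7 with all 8 libraries and 119 without the library labelled WT replicate 2. Means per embryo were compared by exact permutation tests. P values treat littermates as separate samples unless litter was a block. Litter numbers in the titles mark a shared dam, and deviations of HET and WT embryos of 1 litter correlated at 0.0366 to 0.0612 over tiles. No 2 libraries were duplicates, with identical counts at no more than 3.5% of CpGs. The library labelled KO replicate 1 is listed as HET in the study's sample list and kept its label.

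Named tiles were the 12 largest positive and 8 largest negative differences among tiles with an unadjusted p under 0.05 and no overlap of the genotypes, at most 1 per gene and none on chromosome 18, plus tiles chosen on 3 ppm or named for the whole series. Named promoters were tested members of the lists of DNA methylation and folate transport genes and the extremes of each other list. Promoters called without the library labelled WT replicate 2, promoters with no overlap, tiles called with litter as a block and single genes of low methylation were named after their values were seen. The members and gene lists were chosen with earlier results of these data known.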

Additional observations from a re-analysis of the deposited data

Results flagged for a closer look

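Of 142 sets of 5 HET values examined, 7 held an embryo far from the other 4, where chance alone would flag about 1 in 20 groups. HET replicate 5 was the highest at the Fam19a5 tile (90.5%) and the Hormad2 promoter (62.0%) and the lowest at the Sec63 tile (28.6%) and the Cnmd promoter (22.8%). HET replicate 1 was the highest at the Slc28a3 tile (80.4%) and the lowest at the Ldhd promoter (58.8%). HET replicate 4 was the lowest, at 37.78%, over the deposited DMRs higher in WT on 30 than on 3 ppm, where the other 4 HET embryos were at 38.9 to 39.1%. Among the chromosome 10 CpGs that were read in KO and not in WT of the 3 ppm diet, the libraries labelled WT replicates 2 and 3 had reads at 20 and 5, outside the main measurement.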

How the results depend on the processing

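Called tiles numbered 20 with litter as a replicate block, 1 with sex as a covariate, 5 with the library labelled KO replicate 1 as a sixth HET, 18 over single CpGs and 638 at an unadjusted p, and 0 to 605 when 1 library was left out. Called promoters numbered 10 at an unadjusted p and 0 to 12 with 1 library left out, and the block called 0. Interaction tiles numbered 1 at a coverage of 10, 1 with the block and 0 to 17 with 1 library left out. The causes were not tested.

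Leaving out 1 library moved the mean difference between 0.0049 and 0.68 points. By class it ranged from -0.0549 to 0.233 in promoters, 0.275 to 1.35 in exons, 0.096 to 1.38 in introns, -0.0454 to 1.07 between genes, -0.135 to 0.092 under 20%, 0.661 to 3.63 at 20 to 80%, 0.0234 to 0.669 over 80%, and -0.0588 to 0.801, 0.119 to 1.42 and -0.0637 to 0.196 by rising CpG density. At DMRs it ranged from 0.431 to 3.51 (KO, 3 ppm), 0.288 to 3.81 (KO, 0.1 ppm), 1.23 to 4.8 (HET higher), 0.15 to 1.38 (HET lower), -0.674 to 1.49 (WT higher on 0.1 ppm) and 0.864 to 3.73 (WT lower on 0.1 ppm), and at tiles from 3.0 to 8.37 (HET) and 0.683 to 4.34 (KO). The diet difference of the effect ranged from -0.99 to -0.337.

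Chosen after seeing the data, leaving out the library labelled WT replicate 2 while counting KO replicate 1 as HET gave 427 tiles and 10 promoters. The differences were then 0.216 in promoters, 1.26 points in exons, 3.34 at 20 to 80%, 0.188 in dense kilobases, 0.0936 under 20% (reversed), 3.38, 3.7, 4.65 and 3.7 at the DMRs of KO on 3 and 0.1 ppm, HET higher and WT lower on 0.1 ppm, and 8.2 and 4.19 at the HET and KO tiles. It turned Robo4 (0.137), Col1a1 (0.858) and Hoxb8 (1.69), and KO replicate 1 as HET alone turned Dnmt3l (-0.818) and Hoxb8 (0.103). Of 1035 values of named genes under an alternative, 1008 kept their direction. Many of these were named for large differences or for groups that did not overlap. There, leaving out 1 embryo can hardly turn the sign, so the count does not measure stability. With 1 library left out, the ranges over the fits that still tested the tile or promoter crossed 0 at -15.8 to 0.595 (Igfbp5), -0.854 to 8.12 (Spaca1), -4.42 to 11.2 (Tet1), -4.11 to 9.7 (Dppa3), -3.52 to 2.43 (Dnmt3l), -0.133 to 6.82 (Cubn), -4.29 to 4.44 (Sema4a), -4.59 to 0.787 (Robo4), -4.99 to 0.865 (Mei1), -4.17 to 0.0112 (Gdf3), -2.13 to 2.65 (Emcn), -6.03 to 1.37 (Col1a1) and -0.753 to 0.153 (Hoxb8). Hoxb8 varied too little for a test without WT replicate 2, where its difference was 1.23, or without WT replicate 3. The shallowest library, WT replicate 3, limits which CpGs are shared.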
